A study of Mus musculus with 24 samples.

Results

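The 6 miRNAs of the miR-17~92 cluster, miR-17, miR-18a, miR-19a, miR-19b, miR-20a and miR-92a, were followed through the development of mammary tumors in PyMT mice. They were taken by the row names mir-17, mir-18a, mir-19a, mir-19b, mir-20a and mir-92a from a table of 510 miRNAs counted in 24 small RNA libraries, and all 6 had counts in every library. The libraries form 8 groups of 3 mice: mammary tissue of MMTV-PyMT mice taken at week 6 (hyperplasia), week 8 (adenoma/MIN), week 10 (early carcinoma) or week 12 (late carcinoma), all called tumor here, and mammary gland of FVB mice of the same ages, called normal. The PyMT mice were F1 females heterozygous for the transgene on the FVB background, and the controls were FVB females without it, so both arms share strain and sex and no agent was given. The polyoma middle T oncoprotein is driven by the MMTV promoter, which is active in the mammary epithelium, and the tissue at the early ages still holds normal gland. The comparisons ask how far each member differed between tumor and normal at each age, whether that difference changed with age, and whether members cut from the same primary transcript kept the same proportions.

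A primary transcript of the Mir17hg host gene carries the cluster as a row of hairpins. Drosha and Dicer cut each hairpin into a mature miRNA, which guides Argonaute to messenger RNAs that pair with its seed, bases 2 to 8 from the 5′ end. The cluster is known as an oncogenic unit that is activated by Myc and represses, among others, Bim, and its members belong to several seed families with separate target sets. After the shared transcription, the level of each mature member also depends on how its own hairpin is processed and how long the product lasts. miR-18a is known for a regulated processing step that requires hnRNP A1.

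The mature sequences of the 6 members, from RefSeq (GRCm38.p6), are shown with the seed in capitals, because the seeds sort the members and set which miRNAs of other loci share their targets. The table names no arm, and the arm shown is the one usually loaded into Argonaute.
miR-17-5p: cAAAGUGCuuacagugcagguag
miR-20a-5p: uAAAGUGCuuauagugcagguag
miR-18a-5p: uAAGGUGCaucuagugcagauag
miR-19a-3p: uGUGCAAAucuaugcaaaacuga
miR-19b-3p: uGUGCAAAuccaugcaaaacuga
miR-92a-3p: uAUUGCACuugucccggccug
miR-17 and miR-20a share a seed and differ by C1U and C12U, with the base of the first named miRNA, its position from the 5′ end and the base of the second. miR-18a carries the related seed AAGGUGC. miR-19a and miR-19b share the seed GUGCAAA and differ by U11C alone. miR-92a has the seed AUUGCAC, which no other member has.

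On mm9 the 6 hairpins lie within 836 bases of the plus strand, chr14:115442893-115443728, all inside the exon of the noncoding host gene Mir17hg at chr14:115442493-115445949. From 5′ to 3′ the order is miR-17 (chr14:115442893-115442976), miR-18a (chr14:115443073-115443168), miR-19a (chr14:115443222-115443303), miR-20a (chr14:115443379-115443485), miR-19b (chr14:115443527-115443613) and miR-92a (chr14:115443649-115443728). miR-19b and miR-92a have a second hairpin with the identical mature sequence in the related cluster on the X chromosome (chrX:50095160-50095243 and chrX:50095015-50095105, minus strand), and the table gives 1 row for each name, so reads of the copies cannot be told apart. All 53 miRNAs of the table that the annotation places only on X, miR-106a, miR-18b, miR-20b and miR-363 of that cluster among them, stood at 0 counts in every library. Whether reads of the X copies of miR-19b and miR-92a were counted is not given in the sources used here.

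Total counts ranged from 1032241 to 3931375 per library. The floor of 3 counts corresponded to 0.763 to 2.91 CPM, the count scaled to the library, and the lowest member count was 34, for miR-18a in a normal library of week 6. Floors cover counting error only. The listed epithelial miRNAs, all 10 of which were counted, summed to 1.53% to 3.07% of CPM in normal and 5.70% to 9.82% in tumor, with 8 higher and 1 lower in tumor over the weeks (edgeR, adjusted p under 0.05). The sum of miR-143 and miR-145, of smooth muscle and myoepithelium, stood at 14.4% to 25.6% in normal and 6.47% to 12.9% in tumor, and both were lower in tumor. miR-126 of endothelium (2.05% to 3.75% in normal, 0.657% to 1.83% in tumor) and all 3 fibroblast miRNAs (summed 1.27% to 1.99% and 0.418% to 0.804%) were lower too. All 3 erythroid miRNAs (summed 0.780% to 3.46% and 0.206% to 1.37%) and all 3 skeletal muscle miRNAs tested were likewise lower in tumor. Of the leukocyte list, miR-223 stood at 0 throughout, as did all 53 miRNAs placed only on X. Its row is therefore not read as an absence of leukocytes. Among the other 3 of that list, 0 were higher and 1 was lower in tumor. Skeletal muscle miRNAs took over 1% of counts in 4 normal libraries (week 6 replicates 1 and 2, week 10 replicate 3 and week 12 replicate 1) and 2 tumor libraries (week 6 replicate 1 and week 10 replicate 3). The part of this cell mixture in the differences below was not tested, and in bulk tissue fewer cells of a type and less RNA per cell cannot be told apart.

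The cluster took 2.03% to 4.10% of all counts in the normal libraries and 5.64% to 8.19% in the tumor libraries, without overlap. Nearly all of it was miR-92a, which held 94.7% to 98.2% of the members' counts in normal and 96.0% to 97.5% in tumor. Among all miRNAs of a library miR-92a ranked between 5 and 12 in normal and between 2 and 4 in tumor. The mature members are of nearly equal length, so no length correction was made, but how well each sequence is ligated and amplified also enters such comparisons and was not measured here.

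Within each of the 24 libraries miR-92a was the highest member, miR-18a the lowest, miR-17 exceeded miR-20a and miR-19b exceeded miR-19a. miR-19b exceeded miR-17 in all 12 normal libraries and in 11 of 12 tumor libraries. The place of miR-19a varied more. It lay below miR-17 in all 12 normal and 10 of 12 tumor libraries, and above miR-20a in 3 of 12 normal but 11 of 12 tumor libraries. Ranges of neighboring members overlapped over libraries, as the plot of levels by library shows. In normal, miR-17 (117 to 306 CPM), miR-19a (86.5 to 217) and miR-20a (80.3 to 279) overlapped. There miR-19b, from 268 CPM, reached into miR-17 and miR-20a, and miR-18a, up to 100.5 CPM, into miR-19a and miR-20a. In tumor, miR-17, miR-19a, miR-20a and miR-19b overlapped, and miR-18a stood apart. miR-92a stood apart in both tissues.

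**Figure D1:**
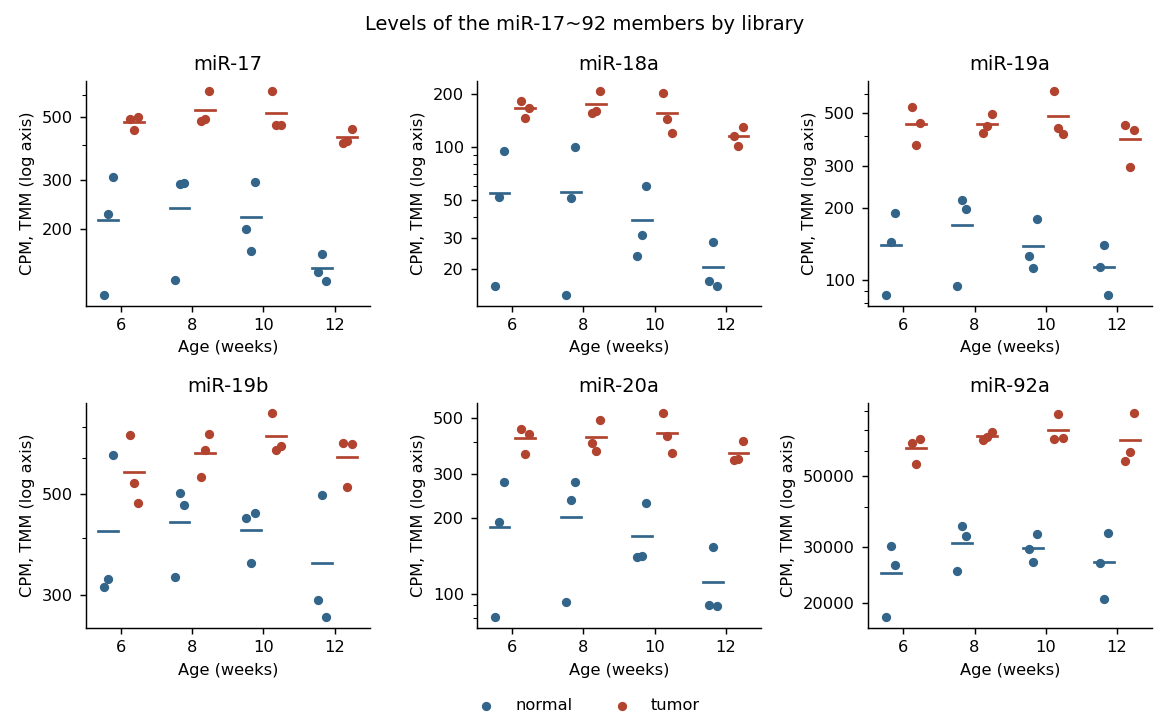
Level of each member in each library, in CPM after TMM normalization on a log axis, against age in weeks. Points are libraries (3 per group) and bars are group means. Tumor libraries lie above the normal libraries of the same age for every member, except for miR-19b at week 6.

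The members with the AAAGUGC seed, miR-17 and miR-20a, act on the same targets, cell cycle inhibitors among them. In tumor, miR-17 had, in CPM of replicates 1 to 3 at the age named, 6 weeks (494, 449 and 502), 8 weeks (486, 493 and 619), 10 weeks (617, 471 and 468) and 12 weeks (407, 412 and 453). In normal it had 6 weeks (117, 228 and 306), 8 weeks (133, 289 and 293), 10 weeks (201, 167 and 294) and 12 weeks (142, 164 and 131). The tumor libraries kept within 1.52-fold of each other, the normal libraries within 2.62-fold, and the groups did not overlap at any week. The tumor-normal difference of miR-17 was 1.15 ± 0.34, 1.15 ± 0.33, 1.23 ± 0.24 and 1.54 ± 0.20 log2 units (± SE) at weeks 6, 8, 10 and 12, past the threshold at every week (edgeR's quasi-likelihood test, Benjamini-Hochberg adjusted p = 0.0231, 0.0296, 0.00468 and 9.78e-04). The call of week 6 was lost without tumor replicate 1 or 2, at 1.15 and 1.26, and that of week 8 without any of the tumor replicates or normal replicate 2, at 1.11 to 1.27. Averaged over the weeks, miR-17 was higher in tumor by 1.27 ± 0.15 log2 units, or 2.41-fold (95% interval 1.93 to 3.02, edgeR adjusted p = 3.73e-07).

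miR-20a followed miR-17 closely. Its CPM in tumor was, by age, 6 weeks (452, 361 and 432), 8 weeks (398, 370.3 and 494), 10 weeks (522, 424 and 363) and 12 weeks (341, 345 and 407). Normal glands had 6 weeks (80.3, 194 and 279), 8 weeks (92.4, 235 and 277), 10 weeks (139, 142 and 229.9) and 12 weeks (90.4, 153 and 89.5), again without overlap with tumor of the same age. Replicate 1 was the lowest normal library of miR-20a at weeks 6, 8 and 10. The differences were 1.17 ± 0.42, 1.06 ± 0.39, 1.36 ± 0.26 and 1.72 ± 0.27 log2 units, and week 8 did not pass the threshold (edgeR adjusted p = 0.0444, 0.0653, 0.00430 and 0.00194 at the 4 weeks). With the replicate number as a block, week 8 passed at 1.16 (edgeR adjusted p = 0.00504). The call of week 6 was lost without any of the tumor replicates or normal replicate 2, at 1.12 to 1.32. The averaged difference of miR-20a was 1.33 ± 0.20 log2 units, or 2.51-fold (95% interval 1.89 to 3.33, edgeR adjusted p = 4.79e-06).

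miR-18a, which has been linked to repression of the estrogen receptor in breast cells, had the lowest level of the members and their largest tumor-normal difference, except at week 6, where miR-19a exceeded it. The tumor libraries had, in CPM, 6 weeks (184, 147 and 168), 8 weeks (157, 161 and 208), 10 weeks (204, 145 and 120.0) and 12 weeks (115, 102 and 129.8). The normal libraries had 6 weeks (16.1, 52.0 and 94.6), 8 weeks (14.2, 51.0 and 100.5), 10 weeks (23.9, 31.6 and 60.0) and 12 weeks (17.2, 28.7 and 16.02). The normal libraries spread over 7.09-fold, against 2.05-fold in tumor, with replicate 3 the highest at weeks 6, 8 and 10 and replicate 1 the lowest there. The highest normal library of week 8 reached 100.5 CPM, close to the lowest tumor libraries of week 12, yet no week overlapped. The differences of miR-18a were 1.61 ± 0.55, 1.68 ± 0.60, 2.03 ± 0.39 and 2.49 ± 0.29 log2 units, and week 8 did not pass the threshold (edgeR adjusted p = 0.0386, 0.0599, 0.00441 and 5.91e-04). With the replicate number as a block, week 8 passed at 1.99 (edgeR adjusted p = 2.44e-04). Without normal replicate 3 the differences were 2.27 at week 6 and 2.44 at week 8, and both passed. The call of week 6 was lost without any of the tumor replicates or normal replicate 2, at 1.55 to 1.74. Averaged over the weeks the difference was 1.95 ± 0.28 log2 units, or 3.86-fold (95% interval 2.57 to 5.81, edgeR adjusted p = 3.87e-06), rank 20 from the top among 237 miRNAs tested.

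miR-19a and miR-19b, the members of the miR-19 seed family, differ by a single base and had unequal differences. The CPM of miR-19a in tumor was, by age, 6 weeks (528, 367 and 452), 8 weeks (411, 442 and 497), 10 weeks (616, 434 and 409) and 12 weeks (447, 298 and 423). That in normal was 6 weeks (86.5, 144 and 192), 8 weeks (94.2, 217 and 198), 10 weeks (126, 112 and 181) and 12 weeks (114, 139.9 and 87.1), below every tumor library. Its differences were 1.67 ± 0.32, 1.40 ± 0.33, 1.80 ± 0.26 and 1.78 ± 0.27 log2 units, past the threshold at every week (edgeR adjusted p = 0.00540, 0.0151, 0.00132 and 0.00172), and the averaged difference was 1.66 ± 0.16 log2 units, or 3.17-fold (95% interval 2.51 to 4.01, edgeR adjusted p = 1.68e-08).

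miR-19b had in tumor, in CPM, 6 weeks (675, 528 and 477), 8 weeks (544, 623 and 677), 10 weeks (751, 625 and 638) and 12 weeks (646, 519 and 643). Its normal values were 6 weeks (313, 326 and 608), 8 weeks (328, 501 and 473), 10 weeks (443, 352 and 454) and 12 weeks (292, 497 and 268). At week 6 the normal replicate 3 lay above 2 of the 3 tumor libraries, and at the other weeks tumor lay above normal. The differences of miR-19b were 0.43 ± 0.30, 0.48 ± 0.24, 0.68 ± 0.16 and 0.78 ± 0.27 log2 units, and only weeks 10 and 12 passed the threshold (edgeR adjusted p = 0.243, 0.136, 0.00954 and 0.0413). Without normal replicate 3 the week 6 difference was 0.80 log2 units and passed. Each of tumor replicates 1, 2 and 3 and normal replicates 1 and 3, when left out, ended the call of week 12, with differences of 0.59 to 0.96, and normal replicate 2 ended that of week 10, with 0.51. Library sizes alone (0.88) and testing all miRNAs with counts (0.74) also ended the call of week 12. So did the lane as covariate (0.79) and edgeR's classic exact test (0.78), which also ended that of week 10 (0.68). Averaged over the weeks, miR-19b was higher by 0.60 ± 0.13 log2 units, or 1.51-fold (95% interval 1.25 to 1.83, edgeR adjusted p = 3.54e-04), the smallest difference of the members.

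miR-92a, whose seed family is known for effects on apoptosis and on vessel growth, was the most even member across libraries. Tumor libraries had, in CPM, 6 weeks (63644, 54816 and 65378), 8 weeks (65145, 66699.5 and 68744), 10 weeks (65548, 78302 and 65856) and 12 weeks (56062, 59712 and 78847). Normal libraries had 6 weeks (18075, 30291 and 26310.5), 8 weeks (25342, 35084 and 32455), 10 weeks (29636, 26953 and 32912) and 12 weeks (26854, 20638 and 33191). All 12 tumor libraries lay above all 12 normal libraries, and the tumor libraries kept within 1.44-fold. The differences were 1.30 ± 0.22, 1.09 ± 0.20, 1.22 ± 0.13 and 1.25 ± 0.29 log2 units, past the threshold at every week (edgeR adjusted p = 0.00296, 0.00705, 4.42e-04 and 0.0104). The averaged difference of miR-92a was 1.23 ± 0.10 log2 units, or 2.34-fold (95% interval 2.02 to 2.71, edgeR adjusted p = 1.57e-09).

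**Figure D2:**
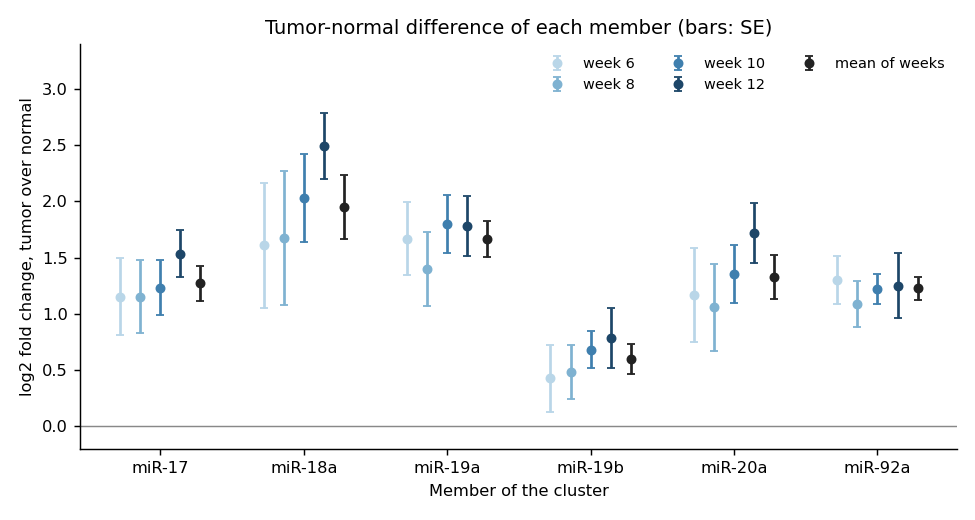
Tumor-normal difference of each member in log2 units (vertical axis) at each week (shades of blue, fits of 6 libraries) and averaged over the weeks (black, fit of 24 libraries). Bars are SE. miR-18a has the largest averaged difference, 1.95, and miR-19b the smallest, 0.60.

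By count, 5, 3, 6 and 6 of the 6 members were higher in tumor at weeks 6, 8, 10 and 12 (edgeR, adjusted p under 0.05), and no call was in the other direction. Among all 237 miRNAs tested, 29.1%, 21.9%, 32.9% and 29.1% were higher at these weeks. The members at week 6 were all but miR-19b, and those at week 8 were miR-17, miR-19a and miR-92a. With the replicate number as a block, miR-18a and miR-20a joined them at week 8, for 5 members. The share of all tested miRNAs was not computed for fits with a block or with libraries left out. Tumor lay above normal without overlap for 5, 6, 6 and 6 members at the 4 weeks, where 34.2%, 32.1%, 36.3% and 33.3% of all tested miRNAs did so. The median difference of the 6 members was 1.23, 1.12, 1.30 and 1.63 log2 units at the 4 weeks, against -0.12, -0.09, -0.15 and -0.19 for all 237. Averaged over the weeks all 6 members were higher, beside 38.8% of the tested miRNAs, with a median of 1.30 against -0.15. The counts of the early weeks moved with the libraries used. Leaving out a library gave between 2 and 6 members at week 6 (2 without tumor replicate 1 or 2, 3 without tumor replicate 3 or normal replicate 2). At week 8 leaving out a library gave 2 members without any of the tumor libraries or without normal replicate 2. In a fit without the 6 libraries rich in muscle miRNAs, which leaves 1 normal library at week 6 that is assumed to vary like the other groups, 1 member, miR-92a, was called at that week, the other differences there were 0.64 for miR-17, 0.73 for miR-18a, 1.09 for miR-19a and 0.51 for miR-20a, and that of miR-19b turned to -0.28. In the same fit all 6 averaged differences passed, at 0.42 for miR-19b and 1.22 to 1.86 for the others.

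In the fit of all 24 libraries without a covariate, edgeR called no change with age for any member. Within tumors, week 12 against week 6 gave 0 of 6 members past the threshold (7.59% of the tested miRNAs passed), 0 at an unadjusted p under 0.05 (25.7%) and 0 with DESeq2. The tumor differences between these ages ran from -0.52 (95% interval -1.66 to 0.61) log2 units for miR-18a to 0.11 (95% interval -0.44 to 0.65) for miR-19b. Within normal glands edgeR likewise called 0 of 6 (21.1% of the tested miRNAs), 1 at an unadjusted p under 0.05 (31.6%) and 1 with DESeq2, miR-18a in both. miR-18a in normal averaged 54.2 CPM at week 6 and 20.6 CPM at week 12, a difference of -1.40 (95% interval -2.57 to -0.23) log2 units (edgeR adjusted p = 0.0798). The lowest libraries of both ages lay close together, at 16.1 and 16.02 CPM, and only the upper ones of week 6 stood apart. Without normal replicate 1 at every age, 3 members passed, at -1.62 for miR-18a, -0.77 for miR-17 and -0.87 for miR-20a. Without normal replicate 3 none passed, the same differences shrank to -0.51, -0.12 and -0.11, and those of miR-19a and miR-19b turned to 0.19 and 0.35. In the fit without libraries rich in muscle miRNAs that of miR-18a was -2.08 and did not pass.

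Between the first and the last age, the difference between tissues changed by 0.39 (95% interval -0.51 to 1.29) log2 units for miR-17, 0.88 (95% interval -0.75 to 2.50) for miR-18a, 0.11 (95% interval -0.83 to 1.04) for miR-19a, 0.34 (95% interval -0.43 to 1.12) for miR-19b, 0.54 (95% interval -0.59 to 1.68) for miR-20a and -0.03 (95% interval -0.61 to 0.56) for miR-92a. The interaction test of edgeR called 0 of 6 members (0.422% of all tested), 0 at an unadjusted p under 0.05 (13.1%) and 0 with DESeq2. A test of any change between the 4 weeks also called 0 of 6 members with edgeR (0% of all tested), 0 at an unadjusted p under 0.05 (3.80%) and 0 with DESeq2. The intervals of all members but miR-92a include a rise of 1 log2 unit, and that of miR-92a does not. The estimates moved with the normal libraries used. Without normal replicate 3 they were -0.04 for miR-17, 0.01 for miR-18a, -0.36 for miR-19a, -0.21 for miR-19b and -0.05 for miR-20a. In the fit without libraries rich in muscle miRNAs they were 0.88, 1.63, 0.68, 0.93 and 1.08 for the same members, and no member was called in either.

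The counts of the members did not keep the same proportions in tumor and normal. The ratio of 2 members within a library needs no scaling between libraries, and the 15 ratios were compared within weeks by a two-sided exact permutation test with Benjamini-Hochberg adjustment over the 15. At an adjusted p under 0.05, 12 of the 15 differed. The 15 ratios share members, so the 12 are not separate results. How many pairs among all tested miRNAs would differ in the same way was not computed. The smallest p the 160000 arrangements allow is 1.25e-05.

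The ratio of miR-19a to miR-19b, which share a seed, separated the tissues in every library. In tumor miR-19a held 6 weeks (0.782, 0.694 and 0.949), 8 weeks (0.757, 0.710 and 0.734), 10 weeks (0.821, 0.694 and 0.642) and 12 weeks (0.693, 0.575 and 0.659) counts per count of miR-19b. In normal the ratio was 6 weeks (0.277, 0.444 and 0.315), 8 weeks (0.287, 0.434 and 0.419), 10 weeks (0.284, 0.318 and 0.399) and 12 weeks (0.391, 0.282 and 0.326). The lowest tumor ratio, 0.575, lay above the highest normal one, 0.444, and the ratio differed by 1.07 ± 0.10 log2 units (SE, exact permutation test, adjusted p = 3.75e-05). It was 1.12 within lane 1 and 1.08 within lane 2 of the sequencer. miR-19b and miR-92a, which each have a second hairpin on X, enter 9 of the 15 ratios.

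Every ratio with miR-19b shifted against it in tumor. Per count of miR-19b, miR-17 held 0.330 to 0.699 counts in normal and 0.630 to 1.05 in tumor, a difference of 0.70 ± 0.11 log2 units (SE, exact permutation test, adjusted p = 3.75e-05). For miR-18a these were 0.0436 to 0.213 and 0.179 to 0.353, a difference of 1.52 ± 0.24 log2 units (SE, exact permutation test, adjusted p = 3.75e-05). miR-19b over miR-20a was 1.68 to 3.89 in normal and 1.10 to 1.89 in tumor, a difference of -0.79 ± 0.14 log2 units (SE, exact permutation test, adjusted p = 3.75e-05). None of these overlapped within a week, and their within-lane values kept the direction, 0.67 within lane 1 and 0.74 within lane 2 for miR-17, 1.89 within lane 1 and 1.10 within lane 2 for miR-18a and -0.89 within lane 1 and -0.69 within lane 2 for miR-20a. miR-19b over miR-92a was lower in tumor, with a difference of -0.61 ± 0.16 log2 units (SE, exact permutation test, adjusted p = 6.8e-04), at -0.34 within lane 1 and -0.89 within lane 2, neither of which passed alone.

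miR-18a gained on the other members in tumor, with larger differences in the libraries of lane 1 than in those of lane 2. Lane 1 held replicate 1 of every week and replicate 2 of weeks 6 and 8, and lane 2 held the others. Only replicate 2 was run in both lanes, and there lane goes with age. Lane and replicate number are therefore largely confounded, and the gap was not tested. A lane alone allows 144 arrangements of the labels. miR-17 over miR-18a was 2.91 to 9.27 in normal and 2.68 to 4.04 in tumor, a difference of -0.83 ± 0.17 log2 units (SE, exact permutation test, adjusted p = 1.56e-04), at -1.22 within lane 1 and -0.37 within lane 2. miR-18a over miR-20a differed by 0.74 ± 0.12 log2 units (SE, exact permutation test, adjusted p = 3.75e-05), at 1.00 within lane 1 and 0.41 within lane 2, and did not overlap within any week. miR-18a over miR-92a differed by 0.91 ± 0.28 log2 units (SE, exact permutation test, adjusted p = 0.00404), at 1.55 within lane 1 and 0.21 within lane 2. miR-18a over miR-19a differed by 0.45 ± 0.18 log2 units (SE, exact permutation test, adjusted p = 0.0213), at 0.77 within lane 1 and 0.02 within lane 2. In lane 2 alone the ratios of miR-18a to miR-17, miR-19a and miR-92a did not pass, and that to miR-19a also lost its call without any single tumor replicate number or normal replicate 1, at 0.17 without the latter.

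miR-17 and miR-20a, the pair with a shared seed, kept close to a fixed proportion. miR-17 over miR-20a was 1.06 to 1.57 in normal and 1.09 to 1.33 in tumor, a difference of -0.09 ± 0.07 log2 units (SE, exact permutation test, adjusted p = 0.207), at -0.23 within lane 1 and 0.04 within lane 2. Without normal replicate 2 the difference was -0.16 and passed, and without normal replicate 1 it was 0.01. The ratios of miR-17 and miR-20a to miR-92a did not pass either, at 0.09 ± 0.13 log2 units (SE, exact permutation test, adjusted p = 0.506) and 0.18 ± 0.18 log2 units (SE, exact permutation test, adjusted p = 0.340). Both changed sign between lanes, the first 0.33 within lane 1 and -0.16 within lane 2, the second 0.55 within lane 1 and -0.20 within lane 2. miR-19a gained on miR-92a by 0.46 ± 0.15 log2 units (SE, exact permutation test, adjusted p = 0.00540), at 0.78 within lane 1 and 0.19 within lane 2. It gained on miR-20a by 0.28 ± 0.09 log2 units (SE, exact permutation test, adjusted p = 0.00936), at 0.23 within lane 1 and 0.39 within lane 2, and miR-17 over miR-19a fell by 0.38 ± 0.07 log2 units (SE, exact permutation test, adjusted p = 2.95e-04), at -0.46 within lane 1 and -0.35 within lane 2. The call for miR-19a over miR-92a was lost without tumor replicate 1 (0.34) or normal replicate 1 (0.36). That over miR-20a was lost without tumor replicate 1 (0.23) or normal replicate 3 (0.19). In lane 2 alone the ratios of miR-19a to miR-92a, miR-20a and miR-17 did not pass. That to miR-20a did not pass in lane 1 alone either.

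**Figure D3:**
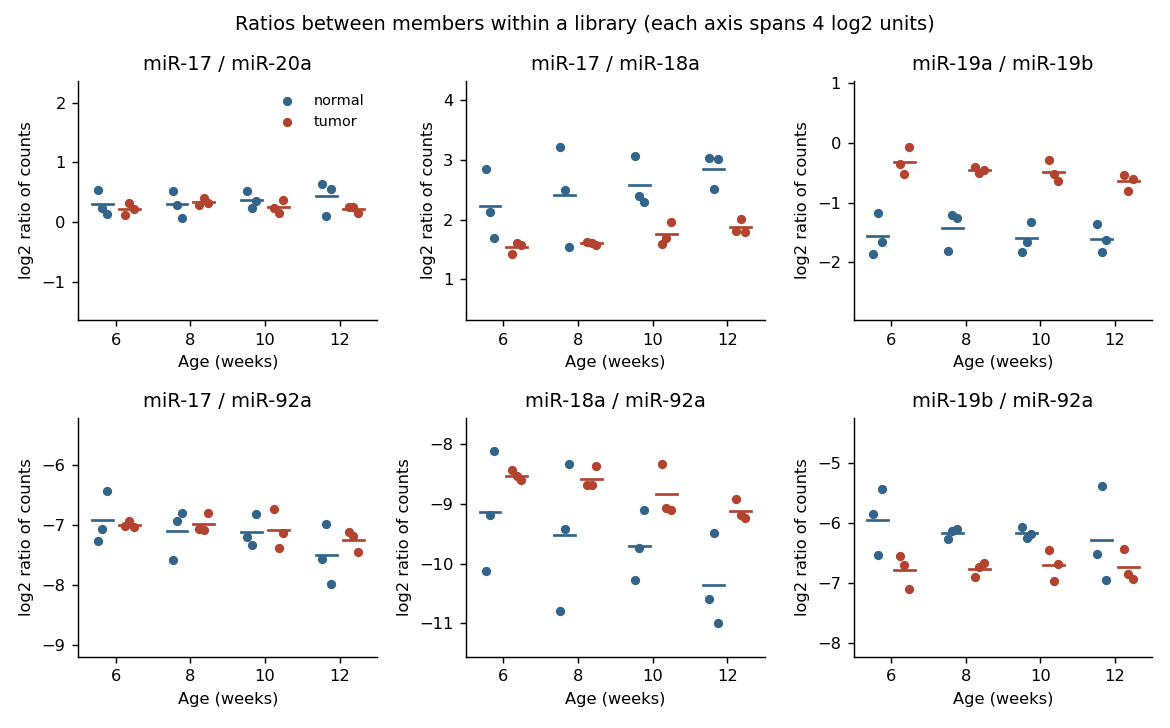
Log2 ratio of counts of 2 members within a library (vertical axis) against age in weeks, for 6 of the 15 ratios. Points are libraries and bars are group means, and every vertical axis spans 4 log2 units. The ratio of miR-19a to miR-19b separates all tumor from all normal libraries, that of miR-17 to miR-20a overlaps at every age, and normal libraries spread most in ratios with miR-18a.

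Apart from the differences between groups, the members formed a close core and an outlying member. Over the 24 libraries, after subtraction of the 8 group means, Pearson's r of log2 CPM was 0.97 for miR-17 and miR-20a, 0.97 for miR-18a and miR-20a, 0.94 for miR-17 and miR-18a and 0.92 for miR-17 and miR-19a. miR-19b correlated at 0.70 to 0.81 with these 4, and miR-92a at 0.40 to 0.55 with them and at 0.04 with miR-19b. In the normal libraries alone the value was 0.97 for miR-17 and miR-19a, and in the tumor libraries alone 0.71. The place of miR-92a moved with the scaling. With library sizes alone in place of TMM, it correlated over the 24 libraries at 0.63 to 0.71 with the same 4 members and at 0.32 with miR-19b. These values are descriptions, since all points share the depth, scaling and cell mixture of their libraries.

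**Figure D4:**
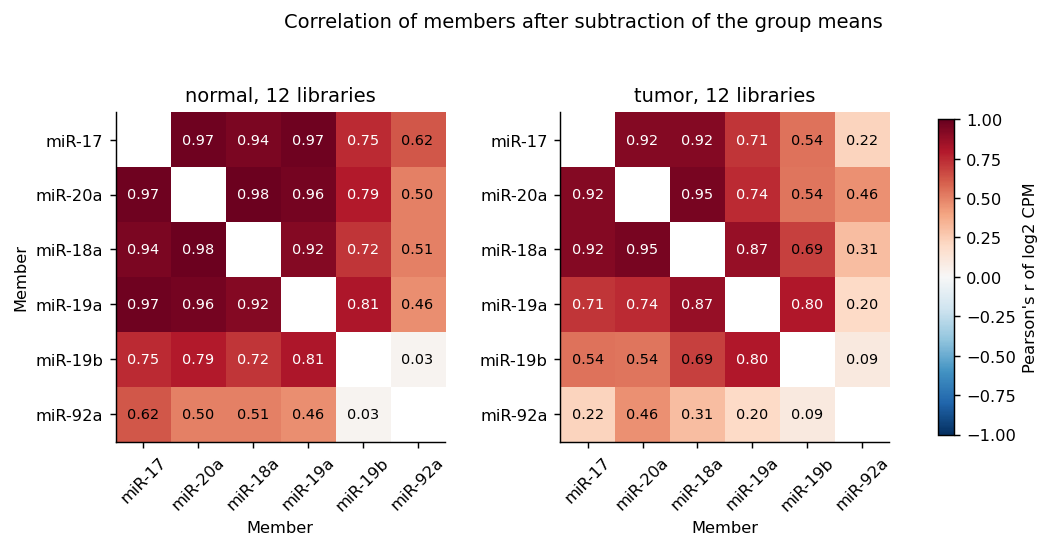
Pearson's r between the members' log2 CPM after subtraction of group means, for the 12 normal libraries (left) and the 12 tumor libraries (right). Rows and columns are members and the color runs from -1 to 1. miR-17, miR-20a and miR-18a reach 0.92 or more with each other in both tissues, and the row of miR-92a is the palest.

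By the same measure the miRNA outside the cluster most like miR-17, miR-18a, miR-19a and miR-20a was miR-93 (r = 0.94, 0.94, 0.80 and 0.95), which shares the seed of miR-17 and comes from the Mcm7 locus. In the normal libraries alone its values were 0.96, 0.97, 0.93 and 0.98, and in the tumor libraries alone 0.75, 0.59, 0.15 and 0.69. In the latter miR-1983, named after its values were seen, was the nearest of the miRNAs outside the cluster for these 4 members (0.86, 0.95, 0.94 and 0.90). Over all 24 libraries, next came miR-106b (0.91) of that locus and miR-183 (0.89) for miR-17, miR-183 (0.91) and miR-342 (0.90) for miR-18a, miR-409 (0.79) and miR-155 (0.79) for miR-19a, and miR-183 (0.91) and miR-181c (0.87) for miR-20a. miR-19b was nearest to miR-155 (0.82), let-7i (0.78) and miR-96 (0.73). miR-92a was nearest to miR-296 (0.84), miR-301a (0.74) and miR-298 (0.74).

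Other loci give miRNAs with the seeds of the cluster, and 10 such relatives were listed. Of these, 5 stood at 0 in every library (miR-106a, miR-18b, miR-20b, miR-363 and miR-367) and 5 were tested. Their mature sequences (RefSeq, GRCm38.p6) are shown to set them beside the members, with the seed in capitals.
miR-93-5p: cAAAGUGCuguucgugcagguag
miR-106b-5p: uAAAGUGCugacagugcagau
miR-25-3p: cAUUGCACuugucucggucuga
miR-92b-3p: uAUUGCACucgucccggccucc
miR-32-5p: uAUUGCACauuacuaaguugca
miR-92b differs from miR-92a by U10C and G21C over the shared length. miR-93, miR-106b and miR-25 come from a single transcript within the Mcm7 gene. Of the 5 tested, 1 was higher in tumor at weeks 6 and 8 and 3 at weeks 10 and 12, beside 29.1%, 21.9%, 32.9% and 29.1% of all miRNAs tested at the 4 weeks. Averaged over the weeks, 4 of the 5 were higher, beside 38.8% of all tested.

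miR-92b had in tumor, in CPM, 6 weeks (998, 850.1 and 925), 8 weeks (1202, 1501 and 674), 10 weeks (955, 1047 and 1097) and 12 weeks (1066, 1046 and 1206). In normal glands these were 6 weeks (78.0, 93.2 and 66.1), 8 weeks (101, 142 and 74.6), 10 weeks (135, 91.4 and 92.7) and 12 weeks (128, 57.8 and 168), below tumor at each age. The differences were 3.55 ± 0.22, 3.38 ± 0.39, 3.27 ± 0.21 and 3.20 ± 0.42 log2 units at weeks 6, 8, 10 and 12 (edgeR adjusted p = 4.92e-05, 0.00189, 3.68e-05 and 9.78e-04). miR-93, of the miR-17 seed, ranged over 389.8 to 1141 CPM in normal and 798 to 1206 in tumor. Its differences were 0.40 ± 0.35, 0.28 ± 0.30, 0.47 ± 0.17 and 0.83 ± 0.20 log2 units at weeks 6, 8, 10 and 12 (edgeR adjusted p = 0.335, 0.458, 0.0417 and 0.0121). Among single weeks miR-106b passed at week 12 alone, at 0.59 ± 0.21 (edgeR adjusted p = 0.0496), and miR-25 at week 10 alone, at 0.44 ± 0.13 (edgeR adjusted p = 0.0249). miR-25 in tumor nevertheless lay above normal without overlap at every week. Averaged over the weeks, miR-93, miR-106b and miR-25 were higher by 0.50 ± 0.15, 0.45 ± 0.10 and 0.40 ± 0.07 log2 units (edgeR adjusted p = 0.00395, 4.70e-04 and 6.79e-05). That of miR-92b was 3.37 ± 0.17 (edgeR adjusted p = 1.48e-12). miR-32, counted at 4 to 59 reads per library, did not pass at any week or averaged over the weeks.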

How the data were processed

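Small RNA libraries (Illumina TruSeq small RNA kit, total RNA by miRNeasy) of 12 tumor and 12 normal mice were used. The authors removed barcode and adaptor, aligned reads of 17 to 27 bases with Bowtie to the genome and RefSeq release 61, counted reads covering more than 50% of a miRBase miRNA and deposited raw counts per miRNA. The paper names mm10 and the labels mm9. Versions of Bowtie and miRBase are not given in the sources used here.

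Groups, ages, replicate numbers and lanes came from the sample labels. Separate mice give the replicates. Counts were tested with edgeR 4.0.16 in R 4.3.3: TMM normalization, miRNAs kept by filterByExpr over 8 groups (237 of 364 with counts), the quasi-likelihood test, and adjusted p (Benjamini-Hochberg) over all 237 with a threshold of 0.05. Each week was fitted on its 6 libraries, and the averaged difference, the age contrasts and the interactions on all 24. SE is the log2 fold change divided by the root of F. Log2 CPM used a prior count of 2 and ratios a pseudocount of 0.5 (2 as an alternative). Ratios were tested in Python 3.11.15 (numpy 2.4.6) by exchanging labels within weeks. DESeq2 1.42.0 was an alternative, as were edgeR's classic exact test, testing all miRNAs with counts, a minimum of 10 counts in each library, and the settings of the closing section. Fits without libraries rich in muscle miRNAs and the ratios to relatives were chosen after seeing the data. Same-numbered tumor and normal libraries deviated together from their group means in all 3 pairs of weeks 6, 8 and 10 (correlations of 0.20 to 0.82) but not of week 12 (0.03 to 0.42), a pairing read from the data and stated by no label, so the fit with a replicate block is given where it changes a call of those weeks. The scripts were tested on simulated data.

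Named miRNAs are the members, 10 relatives and, for each member, the 3 miRNAs outside the cluster with the highest correlation. The members and lists were chosen with earlier results of these data known. Hairpins were placed with the GENCODE annotation of mm9, where each mature sequence was found in its hairpin.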

Additional observations from a re-analysis of the deposited data

How the results depend on the processing

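The direction of every averaged difference and its call held under all alternatives: DESeq2 size factors, library sizes alone, the DESeq2 test, other filters, the lane as covariate, the replicate block, replicates left out, and the added fit without libraries rich in muscle miRNAs. Members called at week 6 numbered 3 with library sizes alone and 2 to 6 with a library left out. At week 8 they numbered 1 with library sizes alone, 2 to 4 with a library left out, and 5 with each of the DESeq2 test, the lane as covariate, the replicate block, a single fit of all 24 libraries and the added fit, which gave 1 at week 6. At weeks 10 and 12 the members called numbered 5 or 6 under every alternative. Shares of all tested miRNAs were not computed under any alternative, DESeq2 included. Whether a setting that called more members also called more of all miRNAs is therefore not shown. Library sizes alone moved the median of all 237 miRNAs by -0.14, -0.13, -0.02 and 0.18 log2 units for the 4 ages, and by -0.29 between the ages of normal glands. DESeq2 size factors moved it by 0.13 between the ages of tumors. In normal glands, week 12 against week 6 gave 1 member with the DESeq2 test and with the lane as covariate, and 0 to 3 with replicates left out. Ratios past the threshold numbered 5 in lane 2 and 9 to 13 with replicates left out. Of the 18 nearest miRNAs outside the cluster, 5 were the same with group means kept. Among single weekly differences, 34 values under an alternative lost a call, 14 gained one and 335 did neither, and 1 more, of miR-19b at week 6 in the added fit, turned to -0.28 with no call in either. The cause of these moves was not tested.

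At week 12 same-numbered libraries shared only a number (deviations correlated over 0.1 in 1 of 3 pairs), and over all weeks 17 of 24 libraries correlated best with their own number. With the replicate block 5, 5, 6 and 6 members were called at the 4 weeks, 6 for the averaged difference and 0 for changes with age, and 12 ratios passed, so that it changed no call of a member other than those of miR-18a and miR-20a at week 8.

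With 3 libraries per group, a week alone cannot reach 0.05 in an exact test of a ratio (the smallest p is 0.1), and depth limits miR-18a most.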

Other observations

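The members were also set against the relatives of the same seed at other loci, a comparison chosen after the values were seen. In each of 7 within-library ratios all 12 tumor libraries lay on 1 side of all 12 normal libraries. The separation therefore holds within each week and lane. The 7 ratios share members and relatives, and how many other pairs of miRNAs separate in this way was not computed. They were picked from values already seen, so a p-value would lend them no support and none is given. miR-17 over miR-93 was 0.242 to 0.334 in normal and 0.412 to 0.545 in tumor, a difference of 0.77 ± 0.06 log2 units (SE), and over miR-106b it differed by 0.86 ± 0.08. miR-20a differed by 0.87 ± 0.08 against miR-93 and by 0.95 ± 0.14 against miR-106b. miR-92a over miR-25 was 7.70 to 11.1 in normal and 13.1 to 18.6 in tumor, a difference of 0.83 ± 0.07. miR-92a over miR-32 was 1705 to 3944 in normal and 4115 to 12608 in tumor, a difference of 1.52 ± 0.17. This last separation is narrow and rests on few reads of miR-32, between 4 and 20 in tumor and between 10 and 59 in normal. Counting error in miR-32 could therefore end it. The opposite direction was found against miR-92b, where 198 to 433 counts of miR-92a per count of miR-92b in normal became 44.4 to 102 in tumor, a difference of -2.16 ± 0.16.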
